A study of Mus musculus with 4 samples.

Results

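miR-7a and miR-7b (mmu-miR-7a and mmu-miR-7b on the array) are the guide microRNAs of the mouse miR-7 family, a pair of paralogs. They were picked by name among the array's probes, and with earlier results of these arrays known, so every value that sets siLin28a against siGFP is given here as a description and not as a test. They are 2 of 577 miRNA names on the array, of which 567 are mouse miRNAs, and are read by 4 of 1712 probes. Both were among the 231 miRNAs that passed the filter on dim probes.

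All samples were of A3-1, a mouse embryonic stem cell line grown with serum, non-essential amino acids and LIF, a cytokine that holds such cells undifferentiated. The siLin28a cells received an siRNA duplex against Lin28a and the siGFP cells, the control, a duplex directed at GFP, and total RNA was purified 48 h later in both. Each group had 2 replicates, and 100 ng of total RNA from each was labelled with Cy3 and hybridised to 1 single-colour Agilent miRNA array. A single duplex and a single cell line stand behind each group, and the labels do not say whether a replicate is a culture of its own, so any p-value here reflects how far these arrays differ among themselves, a spread that may be technical. A miRNA array does not read Lin28a mRNA, so how far Lin28a fell is not known from these values.

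MicroRNAs are cut from hairpin precursors, and one strand, the guide, is loaded into Argonaute, where its seed (bases 2 to 8) pairs with target mRNAs and represses them. miR-7 is known for its abundance in neurons, pituitary and pancreatic islets, and for its partners: the circular RNA Cdr1as carries many miR-7 sites, and the long noncoding RNA Cyrano triggers decay of miR-7. LIN28A is an RNA-binding protein known for blocking the maturation of let-7 precursors through their terminal loops.

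The mature guide sequences are shown because miR-7a and miR-7b are almost the same molecule, which bears on every value below. They are RefSeq's for build GRCm38.p6, written 5′ to 3′ with the seed in capitals.
miR-7a-5p: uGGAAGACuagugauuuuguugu
miR-7b-5p: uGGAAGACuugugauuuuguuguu
Over the 23 positions they share, the guides differed at 1, written A10U (the base of miR-7a, the position counted from 1 at the 5′ end, the base of miR-7b), and miR-7b carried 1 more base at its 3′ end. The seed is GGAAGAC in both, and among 1679 distinct mature names in RefSeq's mouse table no other name carried it.

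The guides come from 3 hairpins, of which 2 give the identical miR-7a guide, so the array cannot say from which of the 2 a miR-7a molecule came. In GRCm38.p6, Mir7-1 lies on the minus strand of chromosome 13 from 58392779 to 58392886, within the span of Hnrnpk (58391132 to 58403343), which encodes an RNA-binding protein and is known to carry miR-7 in an intron. Mir7-2 lies on the plus strand of chromosome 7 from 78888277 to 78888373, and Mir7b on the plus strand of chromosome 17 from 56242988 to 56243098, neither inside another gene of the RefSeq table. The hairpins are shown with the stretch between the guide and the opposite strand, which holds the terminal loop, in capitals.
Mir7-1: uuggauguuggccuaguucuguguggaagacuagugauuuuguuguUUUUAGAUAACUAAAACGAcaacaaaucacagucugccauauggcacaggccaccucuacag
Mir7-2: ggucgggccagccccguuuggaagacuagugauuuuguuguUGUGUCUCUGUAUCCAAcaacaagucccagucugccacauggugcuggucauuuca
Mir7b: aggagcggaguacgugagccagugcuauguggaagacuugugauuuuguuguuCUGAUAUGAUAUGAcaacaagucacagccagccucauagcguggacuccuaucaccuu

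Both motifs searched in these hairpins are known from work on LIN28 proteins: GGAG, bound by the zinc knuckles in let-7 loops, and AAGNNG. Only the RNA's own strand was searched. Neither occurred in the capitalised stretches, which were 19, 17 and 14 bases long in Mir7-1, Mir7-2 and Mir7b. GGAG was present in 6.2% of 371 such stretches of 14 to 19 bases in RefSeq's mouse hairpins and AAGNNG in 4.04%, and GGAG was present in 8 of 11 let-7 and miR-98 stretches, which were 23 to 36 bases long. In whole hairpins, GGAG occurred in Mir7b alone, at positions 2 and 7, both before the guide, and AAGNNG in none of the 3. Of 60 hairpins of 97 to 111 bases, 35.0% held GGAG and 28.3% held AAGNNG. A missing motif says only that these letters are not in the window.

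Each miRNA is read by 2 probes with 10 spots each. In build mm9, the probe targets of miR-7a cover chromosome 13 from 58494202 to 58494222 (21 bases, A_54_P2658) and to 58494223 (22 bases, A_54_P2659). Those of miR-7b cover chromosome 17 from 56382441 (22 bases, A_54_P2663) and from 56382440 (23 bases, A_54_P2664) to 56382462. Every target is long enough to include position 10, where the guides differ. How far each probe also binds the other guide was not tested.

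On all 4 arrays, both miRNAs were called detected by Feature Extraction, Agilent's image analysis program, and both had a higher signal with siLin28a. The total gene signal, the sum of the program's probe signals in linear array units without scaling between arrays, was 431 and 502 for miR-7a with siLin28a, against 257 and 201 with siGFP. For miR-7b it was 47.5 and 60.3 with siLin28a, against 23.7 and 21.6 with siGFP. For each miRNA both siLin28a arrays lay above both siGFP arrays. After scaling between arrays, 30.7% of the 231 tested miRNAs had this order. In the unscaled units that share was not counted. The means were 467 ± 50.5 with siLin28a and 229 ± 39.7 with siGFP for miR-7a, and 53.9 ± 9.02 with siLin28a and 22.6 ± 1.53 with siGFP for miR-7b (SD, n = 2 each). The ratio of the siLin28a mean to the siGFP mean was 2.04 for miR-7a and 2.38 for miR-7b. The siLin28a arrays were brighter as a whole. With each array's total signals scaled to their 75th percentile over the miRNAs detected on all 4 arrays, the ratios were 1.68 and 1.96. In cultured cells measured in bulk, more cells with a miRNA and more of it per cell cannot be told apart.

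**Figure D1:**
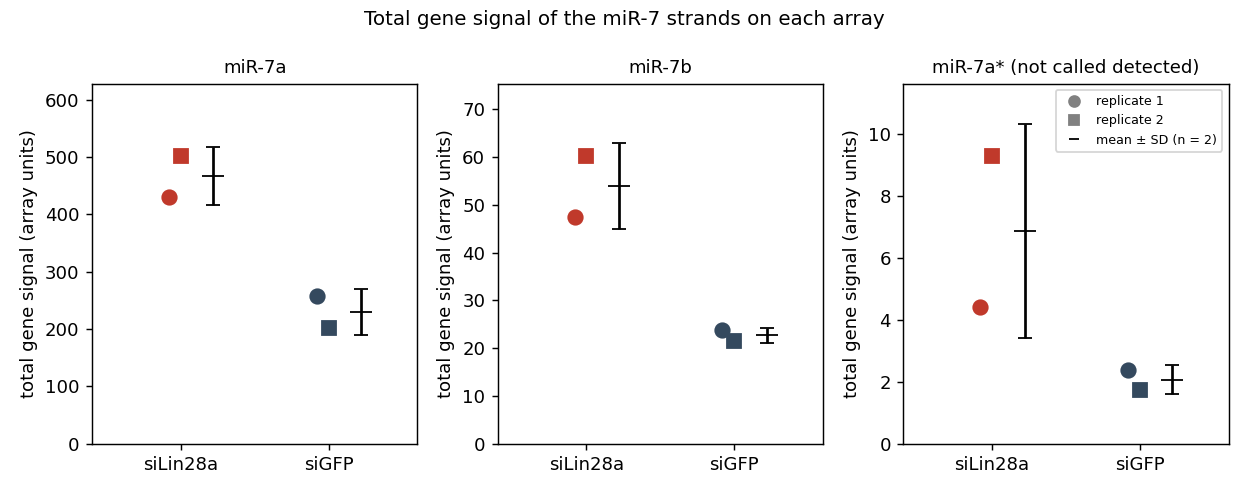
Total gene signal (linear array units, no scaling between arrays) of miR-7a, miR-7b and miR-7a* on each array, siLin28a left and siGFP right, with a circle for replicate 1, a square for replicate 2, and the mean ± SD (n = 2). For miR-7a and miR-7b the siLin28a arrays lie above the siGFP arrays, an order that 30.7% of the tested miRNAs had after scaling. miR-7a* stays under 10 units and was not called detected on any array.

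The errors that Feature Extraction gives for the total gene signals set the limit of what 1 array can show. For miR-7a they were 32.0 and 37.2 units with siLin28a and 19.7 and 15.4 units with siGFP, smaller than the gap between the groups. For miR-7b they were 5.53 and 5.57 units with siLin28a and 4.62 and 4.29 units with siGFP. The miR-7b siGFP signals, at 23.7 and 21.6 units, differed from each other by less than these errors.

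The opposite strand of the chromosome 13 hairpin, miR-7a* in the array's naming, is usually the strand that is discarded. Its probe targets lie in mm9 on chromosome 13 from 58494161 to 58494178 and to 58494179. Its total gene signal was 4.43 and 9.30 with siLin28a, against 2.39 and 1.73 with siGFP, with errors of 3.47 to 4.27 units, and it was not called detected on any array. No fold is given for it.

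Probe by probe, both readers of each miRNA showed the same order of groups. The mean spot signal above background of A_54_P2658 (miR-7a) was 215 and 246 units with siLin28a, against 123 and 95.9 with siGFP. That of A_54_P2659 (miR-7a) was 390 and 447 units with siLin28a, against 249 and 180 with siGFP. As a ratio, the 2 siLin28a arrays stood closer together than the 2 siGFP arrays on both miR-7a probes. For the dimmer miR-7b, A_54_P2663 had 22.8 and 30.5 units with siLin28a, against 10.7 and 10.6 with siGFP. A_54_P2664 (miR-7b) had 43.9 and 52.7 units with siLin28a, against 23.6 and 18.9 with siGFP. On all 4 probes the siLin28a arrays lay above the siGFP arrays, as did 33.5% of the 477 kept probes in scaled signal.

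Single spots gave the same picture within each probe. For A_54_P2658 the spots used ran from 204 to 264 units with siLin28a, against 87.3 to 131 with siGFP. For A_54_P2659 they ran from 351 to 499 units with siLin28a, against 166 to 290 with siGFP. No spot of either miR-7a probe overlapped between groups. For A_54_P2663 the spots ran from 18.5 to 35.9 units with siLin28a, against 4.48 to 17.5 with siGFP, and for A_54_P2664 from 37.0 to 55.8 with siLin28a, against 14.6 to 27.3 with siGFP. In these unscaled units the miR-7b spots did not overlap either. The share of all kept probes whose spots did not overlap was not counted, so this is not known to be particular to miR-7. With each spot divided by its array's 75th percentile, those of A_54_P2663 overlapped, at 0.074 to 0.14 with siLin28a, against 0.020 to 0.080 with siGFP, while the spots of the other 3 probes did not. Within an array the coefficient of variation over spots was 3.46% to 8.72% for the miR-7a probes and 4.92% to 33.8% for the miR-7b probes. Spots of one array share their RNA and are not replicates. Of 80 spots over the 4 arrays, 3 were left out as outliers for miR-7a and 4 for miR-7b.

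For a comparison with all miRNAs, each array was scaled to the 75th percentile of its probes well above background, dim values were raised to a common floor, and probes were averaged per miRNA after taking log2. On this scale miR-7a had log2 levels of 0.22 and 0.32 with siLin28a, against -0.37 and -0.74 with siGFP, all far above the floor of -3.40. The difference was 0.83 (SE 0.16 in limma's fit, n = 2 per group), a 1.78-fold higher level with siLin28a. It ranked 8 of 231 tested miRNAs from the highest down, with a median difference of 0 over all of them. The rank depends on the floor: the same miR-7a difference ranked 17 without it and 2 with it doubled. Between arrays of the same replicate number the siLin28a level exceeded the siGFP level by 0.59 for replicate 1 and by 1.07 for replicate 2. The gap between the siLin28a arrays was 0.10, and that between the siGFP arrays was 0.37, so the size of the miR-7a difference depends on which siGFP array it is set against.

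miR-7b lay close to the floor, and the floor decides its value. With it, the log2 levels were -2.95 and -2.72 with siLin28a, against -3.33 and -3.40 with siGFP, a difference of 0.53 (SE 0.10 in limma's fit, n = 2 per group), or 1.44-fold, which ranked 27 of 231. The floor also narrowed the spread of the siGFP levels, to an SD of 0.050, against 0.086 without it. A_54_P2663 was not well above background on either siGFP array, and A_54_P2664 was so on 1 of 2. For A_54_P2663 the siLin28a signals were set against the lowest signal well above background on each siGFP array, and were 1.16-fold higher by mean log2. This is not a strict bound. The scaled siLin28a signals were 0.0919 and 0.115, against lowest signals of 0.0948 and 0.0837 on the siGFP arrays. The signal of siLin28a replicate 1 thus lay below the lowest of siGFP replicate 1. A_54_P2664 also read 0.0862 on siGFP replicate 2 without being well above background. Over both probes, with each siGFP signal raised at least to that lowest signal, it was 1.51-fold higher, or 0.60 on the log2 scale. Without the floor the levels were -2.97 and -2.72 with siLin28a, against -3.83 and -3.95 with siGFP, a difference of 1.04. That value rests on siGFP signals that were mostly not well above background.

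Which paralog differed more is not settled by these values. Both miR-7b probes passed the filter on dim probes through the siLin28a arrays alone, so miR-7b could be tested only because it was high there. The miR-7a probes were well above background on all 4 arrays, and their log2 differences were 0.88 for A_54_P2658 and 0.78 for A_54_P2659, the same with and without the floor. On total gene signals scaled in the same way they were 0.75 for miR-7a and 0.96 for miR-7b, which ranked 22 and 11 of 264 miRNAs. The normexp background correction, which adds an offset of 50 units to every signal, gave 0.57 for miR-7a and -0.0015 for miR-7b.

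**Figure D2:**
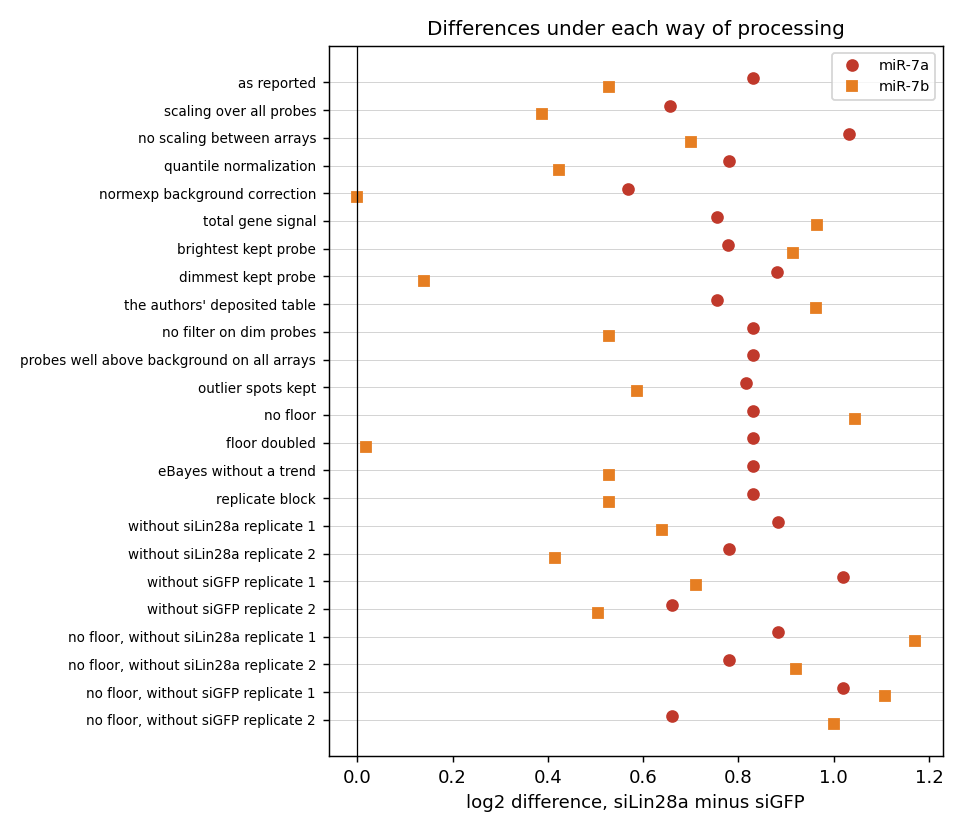
Log2 difference of siLin28a minus siGFP for miR-7a (circles) and miR-7b (squares) as reported and under each other way of processing, 1 per line. miR-7a stays between 0.57 and 1.03. miR-7b runs from about 0 with normexp or the floor doubled to 1.04 without the floor, and to 1.17 with siLin28a replicate 1 left out as well.

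**Figure D3:**
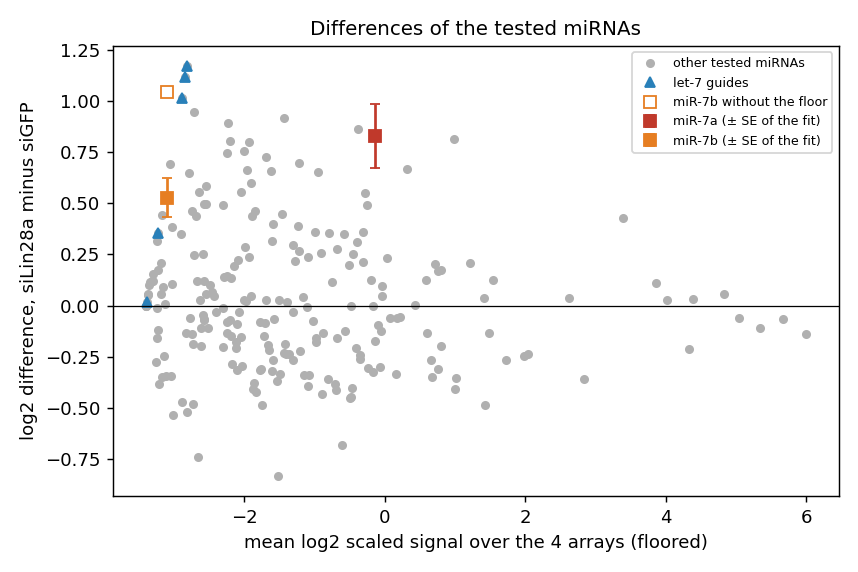
Log2 difference of siLin28a minus siGFP for the 231 tested miRNAs (points) against their mean log2 scaled signal over the 4 arrays, with let-7 guides as triangles and miR-7a and miR-7b as filled squares with the standard error of the fit. miR-7a stands at 0.83 in the middle of the signal range, and miR-7b stands at 0.53 close to the floor and at 1.04 (open square) without the floor.

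The siLin28a levels of both miR-7a and miR-7b lay above the siGFP levels without overlap. That holds for 71 of 231 tested miRNAs, or 30.7%, and for as many in the lower direction, 30.7%, and the members were chosen with this order of groups known. In limma's test over all miRNAs, 2 miRNAs (0.866%) passed an adjusted p of 0.05 in the higher direction with siLin28a and 0 (0%) in the lower, and the unadjusted p passed 0.05 for 31 and 26. The 2 called were let-7 guides whose siGFP levels were the floor value on both arrays, and neither was miR-7a or miR-7b.

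The miRNAs nearest to miR-7a by profile, taken as the root mean square distance between log2 levels over the 4 arrays after each was centred on its own mean, were miR-685 (0.054), miR-877 (0.088), miR-721 (0.12), miR-680 (0.17) and miR-135a* (0.18). Their log2 differences were 0.74, 0.66, 0.67, 0.55 and 0.49. The median distance of all 230 other miRNAs to miR-7a was 0.46. Those nearest to miR-7b were miR-680 (0.026), miR-500 (0.041), miR-135a* (0.048), miR-874 (0.058) and miR-705 (0.059), against a median of 0.32. miR-7b was the neighbour of rank 6 for miR-7a, at a distance of 0.19, and miR-7a was the neighbour of rank 41 for miR-7b. All distances were taken on floored levels, and miR-7b lay close to the floor, so its neighbours, distances and ranks depend on the floor. Its difference was 0.53 with the floor and 1.04 without it. Distances without the floor were not computed, so these ranks do not show that the paralogs have unlike profiles. With 4 arrays, many miRNAs with a like difference between groups are near each other by this measure.

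**Figure D4:**
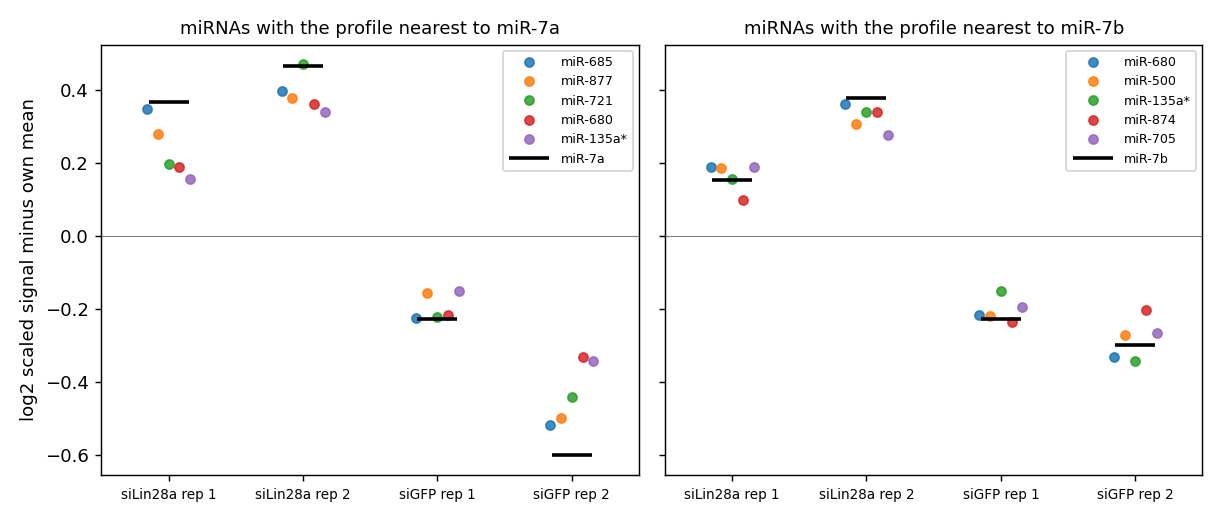
Log2 scaled signal, floored, of miR-7a (left) and miR-7b (right), as black bars, on each array after centring on the miRNA's own mean. Points show the 5 miRNAs with the nearest profile to each. miR-7b lies close to the floor, on which its profile depends. All are above their mean on both siLin28a arrays and below it on both siGFP arrays, and miR-7a has the lowest value on the siGFP array of replicate 2.

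Of the miR-7 partners, the array reads the strands of miR-671, a miRNA known to direct the slicing of Cdr1as. miR-671-5p had a mean log2 level of -0.78 with siLin28a and of -1.04 with siGFP (n = 2 each). Both siLin28a arrays lay above both siGFP arrays, as for 30.7% of all tested miRNAs. The difference of 0.26 (SE 0.17) did not pass limma's test (adjusted p = 0.370). miR-671-3p was not detected on any array. Cdr1as and Cyrano are not on the array.

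Other miRNAs known from neurons and endocrine cells were taken as a list. Of 16 on the array, 6 passed the filter on dim probes, and limma called 0 of them in either direction, also at an unadjusted p below 0.05. Over all 231 tested miRNAs it called 0.866% higher and 0% lower, and the unadjusted p passed 0.05 for 31 higher and 26 lower. A count of 0 among 6 therefore says little. The median log2 difference of the 6 was 0.12, against 0 over all tested miRNAs. Of the 6, 1 was higher on both siLin28a arrays, against 30.7% of all tested miRNAs. The brain miRNA miR-124 had levels of -1.71 and -1.28 with siLin28a, against -1.59 and -1.47 with siGFP, with overlapping groups. miR-212 differed by -0.18 (SE 0.14) and miR-128 by 0.12 (SE 0.12). miR-375, a miRNA known from islet and pituitary endocrine cells, had a total gene signal below 0 on all 4 arrays, and the neural miR-9 was not detected on any. These lists were fixed with earlier results of these arrays known. The median was -0.02 with the scaling over all probes, which moved the median of all miRNAs to -0.16, -0.02 with quantile normalization, and 0.28 with no scaling, which moved the median of all miRNAs to 0.19.

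The cell type on the label was checked against the miR-290 to miR-295 cluster, which marks mouse embryonic stem cells. All 8 of its members on the list were detected on all 4 arrays, with a summed total gene signal of 66496 and 68970 units with siLin28a, against 60155 and 59874 with siGFP. Markers of other cell types were summed in the same way over all markers of a list on the array, detected or not, with values below 0 counted as 0. The 6 neural markers, of which 3 were detected on all arrays, summed to 251 and 348 units with siLin28a, against 214 and 257 with siGFP. The 9 fibroblast or feeder markers, of which 5 were detected on all arrays, summed to 1077 and 1204 units with siLin28a, against 909 and 871 with siGFP. Feeder and fibroblast markers were thus brighter on both siLin28a arrays in unscaled units, as the arrays were as a whole. Of the 5 that were tested, 3 were higher and 1 was lower on both siLin28a arrays in scaled signal. Over all tested miRNAs the share was 30.7% in each direction. The 5 blood markers, of which 2 were detected on all arrays, summed to 162 and 115 units with siLin28a, against 127 and 101 with siGFP. The 3 liver and endoderm markers, of which 0 were detected on all arrays, summed to 21.8 and 35.1 units with siLin28a, against 12.6 and 18.0 with siGFP. The 4 muscle markers were not detected on any array. The part of such cells in the miR-7 values was not tested.

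let-7 is the family that LIN28A is best known to hold back. The array reads 9 guides of it, miR-98 included, and none was detected on all 4 arrays. Their total gene signals summed to 346 and 339 units with siLin28a, against 50.01 and 45.5 with siGFP. The 5 tested guides had a median log2 difference of 1.01, and limma called 2 of them. That median is held down by the floor, since the siGFP level of each of the 5 was the floor value itself. miR-7a, by contrast, was well above background on every array with both probes.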

How the data were processed

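miRNA levels were read from 4 scanner files of 1 Agilent slide (array design 019119). The deposited intensity values come from Agilent Feature Extraction, in version 9.5.1.1 per the file headers, while the submitters' processing notes name 9.5.3.1. Spot intensity in the deposited files is background-subtracted and not scaled between arrays, and the authors' deposited table holds total gene signals with values at or below 0 written as 0. Its column medians were 6.3 and 9.1 for siLin28a and 4.7 and 4.7 for siGFP. The 0 or 1 flags in the deposited files mark outlier spots, spots well above background and detected miRNAs. Probe targets are in mm9.

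Outlier spots (3.21% to 4.32% of 11540) were left out and 0 spots were saturated. The spots of a probe were averaged, and a probe counted as well above background with at least 50% of its spots so flagged. Arrays were divided by the 75th percentile over the 425 probes that were well above background throughout (248 and 265 for siLin28a, 226 and 220 for siGFP), floored at 0.0948 and taken to log2. Probes that passed this on both arrays of either group were kept, 477 in all, and averaged per miRNA. limma 3.58.1 in R 4.3.3 (lmFit, eBayes with a trend) was run over 231 miRNAs with Benjamini-Hochberg adjustment, with 2 residual and 1.64 prior degrees of freedom. Of these steps only the limma fit was tested on simulated data, drawn around the processed levels. The scaling, filter, floor and averaging were not. Figures used matplotlib 3.10.9.

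The 2 members, the lists, the naming rule and the alternatives were chosen with earlier results of these data known. The rule named both members with all their probes and the opposite strand, the 5 miRNAs nearest to each by profile, and up to 3 members of each list by level. miR-375, miR-9 and the undetected miRNAs were named after their values were seen, and the LIN28 motifs were chosen then too. With 2 arrays per group, their number limits the precision.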

Additional observations from a re-analysis of the deposited data

How the results depend on the processing

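The miR-7a difference was above 0 under all 23 alternatives run, between 0.57 and 1.03. It moved by more than the spread between replicates in 2 of them, to 1.03 with no scaling between arrays and to 0.57 with normexp. Many of the 23 were no check on it. Changes of the filter, floor or eBayes trend and the replicate block could not move it, and gave 0.83 again. The deposited table nearly repeats the total gene signal. With 1 array left out the miR-7a difference was 0.66 to 1.02, lowest without siGFP replicate 2 and highest without siGFP replicate 1. Leaving out the floor as well could not change these values. Scaling over all probes moved the median of all miRNAs to -0.16, and no scaling moved it to 0.19. Relative to these medians the miR-7a difference was 0.81 and 0.84. The miR-7b difference was just below 0 with normexp, at -0.0015 (SE 0.0077, against a median of -0.054 over all miRNAs). With the floor doubled it was 0.017. It was 0.39 with the scaling over all probes, 0.70 with no scaling, 0.91 with the brightest probe, 0.14 with the dimmest probe, 0.96 with the total gene signal, 0.96 with the authors' deposited table and 1.04 with no floor. With 1 array left out it was 0.42 to 0.71 with the floor and 0.92 to 1.17 without it (1.11 without siGFP replicate 1, 1.00 without siGFP replicate 2), the second range added after the data were seen. With only probes well above background on all arrays, miR-7b had no value.

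The count of miRNAs called was 2 as reported. It was 0 with the scaling over all probes, normexp, the dimmest probe, the floor doubled or only probes well above background on all arrays, 8 with the total gene signal, the authors' deposited table or no floor, and 48 with no filter. With 1 array left out, where the lone array of a group is assumed to vary like the other group, it was 0 to 13: 13 without siLin28a replicate 1, 7 without siLin28a replicate 2 and 0 without either siGFP replicate. Without the floor it was 0 to 26. A block for the replicate number cannot change the differences of 0.83 and 0.53, since each number occurs in both groups. Fitted with it, 2 miRNAs were called. Deviations of same-numbered arrays correlated at 0.71 over 231 miRNAs, but with 2 numbers, which go with position on the slide, no label ties them to a culture or day. Slide and scan gave no batch to test, since all arrays lay on 1 slide.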
